A study of Mus musculus with 12 samples.

Results

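The subject is a group of 10 cytokine genes of inflammation and its regulation in mouse liver cells: Tnf, Il1a, Il1b, Il1rn, Il6, Il10, Il18, Tgfb1, Osm and Csf1. The genes were read from all probe sets to which the platform annotation gives one of these symbols alone. Of the 10 genes, 9 were measured, with 14 of the 22626 probe sets on the array, among 12393 genes that had a probe set of a single symbol. There was 1 probe set for 7 genes, Il1rn had 3 and Csf1 had 4, and Osm was not analysed here. The samples came from male C57BL/6N mice of 12 weeks, whose hepatocytes (the parenchymal cells of the liver) and mesenchymal cells were profiled on 1 Affymetrix expression array per sample. The 4 groups, with 3 samples each, were mesenchymal cells of mice that drank phenobarbital for 14 days at a daily 50 mg/kg, mesenchymal cells of vehicle mice given water for 14 days, hepatocytes of the phenobarbital mice and hepatocytes of the vehicle mice. No mouse carried an engineered allele according to the labels. The sources used here do not say how the populations were isolated or how many animals stand behind a sample, so p-values measure only the spread between these samples.

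All levels below are log2 values after RMA, an array normalization that works on the log2 scale, so a difference of 1 is a 2-fold difference. The level of one gene cannot be set against that of another, because probe sets bind with different strength. For each array, the 40th percentile of its 22626 values served as the floor for testing. It lay at 6.64 to 6.68 in mesenchymal arrays and at 6.54 to 6.60 in hepatocyte arrays, and a level at or below it is rough. A gene was tested when it lay above the floor in 3 or more of the arrays fitted, and it was called at a Benjamini-Hochberg adjusted p under 0.05.

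These cytokines are the signals by which resident macrophages, other immune cells and the lining cells of the liver sinusoids speak to hepatocytes and to one another. Tumour necrosis factor and interleukin-1 switch on NF-kappaB and AP-1 in the cells they reach, interleukin-6 and oncostatin M act through receptors that share the gp130 chain and switch on STAT3, and hepatocytes answer them with acute phase proteins. Interleukin-10, the interleukin-1 receptor antagonist and transforming growth factor beta restrain or redirect this response, and colony stimulating factor 1 keeps macrophages alive. Kupffer cells, the resident macrophages of the liver, are known as a main source of Tnf, Il1a, Il1b, Il6 and Il10 there.

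The promoter windows of 5 members are printed. Il1a, Il1b, Tgfb1 and Csf1 were taken because they carry the widest differences between the populations. Tnf was added because it shares the TATA box letters TATAAA with Il1a and Il1b without the difference. Each window holds the 250 bases before the transcription start, 5′ to 3′ on the strand of the gene, from RefSeq on GRCm38.p6. Il1b lies at chr2:129371140-129371389 (minus strand), Il1a at chr2:129309973-129310222 (minus strand), Tnf at chr17:35202008-35202257 (minus strand), Tgfb1 at chr7:25686752-25687001 (plus strand) and Csf1 at chr3:107760470-107760719 (minus strand). Capitals mark matches to 3 motifs searched on both strands: the TATA box letters TATAAA, the AP-1 letters TGANTCA and the NF-kappaB consensus.
Il1b: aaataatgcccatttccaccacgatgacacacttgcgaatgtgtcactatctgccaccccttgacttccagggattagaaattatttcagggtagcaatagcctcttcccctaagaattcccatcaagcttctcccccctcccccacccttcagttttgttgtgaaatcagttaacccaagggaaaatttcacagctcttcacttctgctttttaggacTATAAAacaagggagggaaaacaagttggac
Il1a: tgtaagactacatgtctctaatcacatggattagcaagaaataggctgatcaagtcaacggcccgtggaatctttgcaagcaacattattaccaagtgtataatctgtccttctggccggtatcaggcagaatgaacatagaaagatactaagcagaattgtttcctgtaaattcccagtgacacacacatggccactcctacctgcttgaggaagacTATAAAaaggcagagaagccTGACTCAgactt
Tnf: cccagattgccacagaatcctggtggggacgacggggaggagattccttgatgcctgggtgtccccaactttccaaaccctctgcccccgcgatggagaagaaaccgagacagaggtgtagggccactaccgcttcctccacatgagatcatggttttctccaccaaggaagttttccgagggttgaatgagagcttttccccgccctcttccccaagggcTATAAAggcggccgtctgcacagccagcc
Tgfb1: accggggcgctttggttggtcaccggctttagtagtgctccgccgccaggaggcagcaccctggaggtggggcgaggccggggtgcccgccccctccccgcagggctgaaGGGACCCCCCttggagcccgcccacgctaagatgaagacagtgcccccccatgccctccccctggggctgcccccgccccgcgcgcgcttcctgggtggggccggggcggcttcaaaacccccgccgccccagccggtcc
Csf1: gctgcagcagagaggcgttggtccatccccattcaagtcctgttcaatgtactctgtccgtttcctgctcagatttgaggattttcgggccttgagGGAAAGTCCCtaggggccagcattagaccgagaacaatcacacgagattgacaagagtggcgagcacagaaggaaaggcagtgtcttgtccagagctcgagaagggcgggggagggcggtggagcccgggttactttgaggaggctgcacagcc

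Il1b, Il1a and Tnf each held TATAAA close to the start of transcription. The match began 31 bases before the start in Il1b, 32 bases before it in Il1a and 29 bases before it in Tnf. In Il1a an AP-1 match, TGACTCA, followed 12 bases before the start. The windows of Tgfb1 and Csf1 held no TATAAA. They held a match to the NF-kappaB consensus, which began 140 bases before the start in Tgfb1, where it reads on both strands at the same place, and 154 bases before it in Csf1, on the minus strand of the window. The window of Tgfb1 was 75.2% G and C, against 44.4% in Il1b, 42.4% in Il1a, and a median of 52.4% over all 32851 promoter windows of the table. Windows were found for 8 of the 10 genes, with 3 for Il1rn. Among those not printed, Il6 held an NF-kappaB match that began 44 bases before the start and the AP-1 letters TGAGTCA 249 bases before it. Il1rn held the same AP-1 letters 141 bases before the start in 1 of its 3 windows, and Il18 held TATAAA only on the reverse strand, 175 bases before it. Of all 32851 windows, 12.4% held TATAAA, 6.75% held the AP-1 letters and 7.25% held the NF-kappaB consensus, the 3 motifs being able to overlap. Il1a and Il1b are neighbouring coding genes on chromosome 2, and Tnf lies between Ltb and Lta, the genes of the lymphotoxins, on chromosome 17. These matches describe letters in a window and say nothing of whether a factor was bound.

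The first question was which cell population carried the RNA of each cytokine. Of the 7 cytokines that could be tested, 6 were higher in mesenchymal cells than in hepatocytes, in phenobarbital mice and in vehicle mice alike: Il1b, Il1a, Tgfb1, Csf1, Il1rn and Il18. The differences ran from 13.5-fold for Il1b in phenobarbital mice (14.8-fold in vehicle mice) to 1.92-fold for Il18 in phenobarbital mice (1.72-fold in vehicle mice). Tnf was the tested cytokine that was not called. Il6 and Il10 lay below the floor in most mesenchymal samples and in every hepatocyte sample. The populations differed in most genes: 83.1% of the 9031 genes tested were called in phenobarbital mice, 42.2% higher and 40.9% lower in mesenchymal cells, and 82.7% in vehicle mice, 42% higher and 40.7% lower. Read against that, 6 of 7 called is close to the share of all genes. Il1a and Tgfb1 exceeded the floor on no hepatocyte array, so they could be tested only because of their mesenchymal values, which fixed the direction of their difference. Over all 9 measured cytokines, with Il6 and Il10 from a fit with no filter, the median difference was 1.72 in phenobarbital mice and 2.12 in vehicle mice, beside medians of −0.22 and −0.19 over all 12393 genes in that fit.

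**Figure D1:**
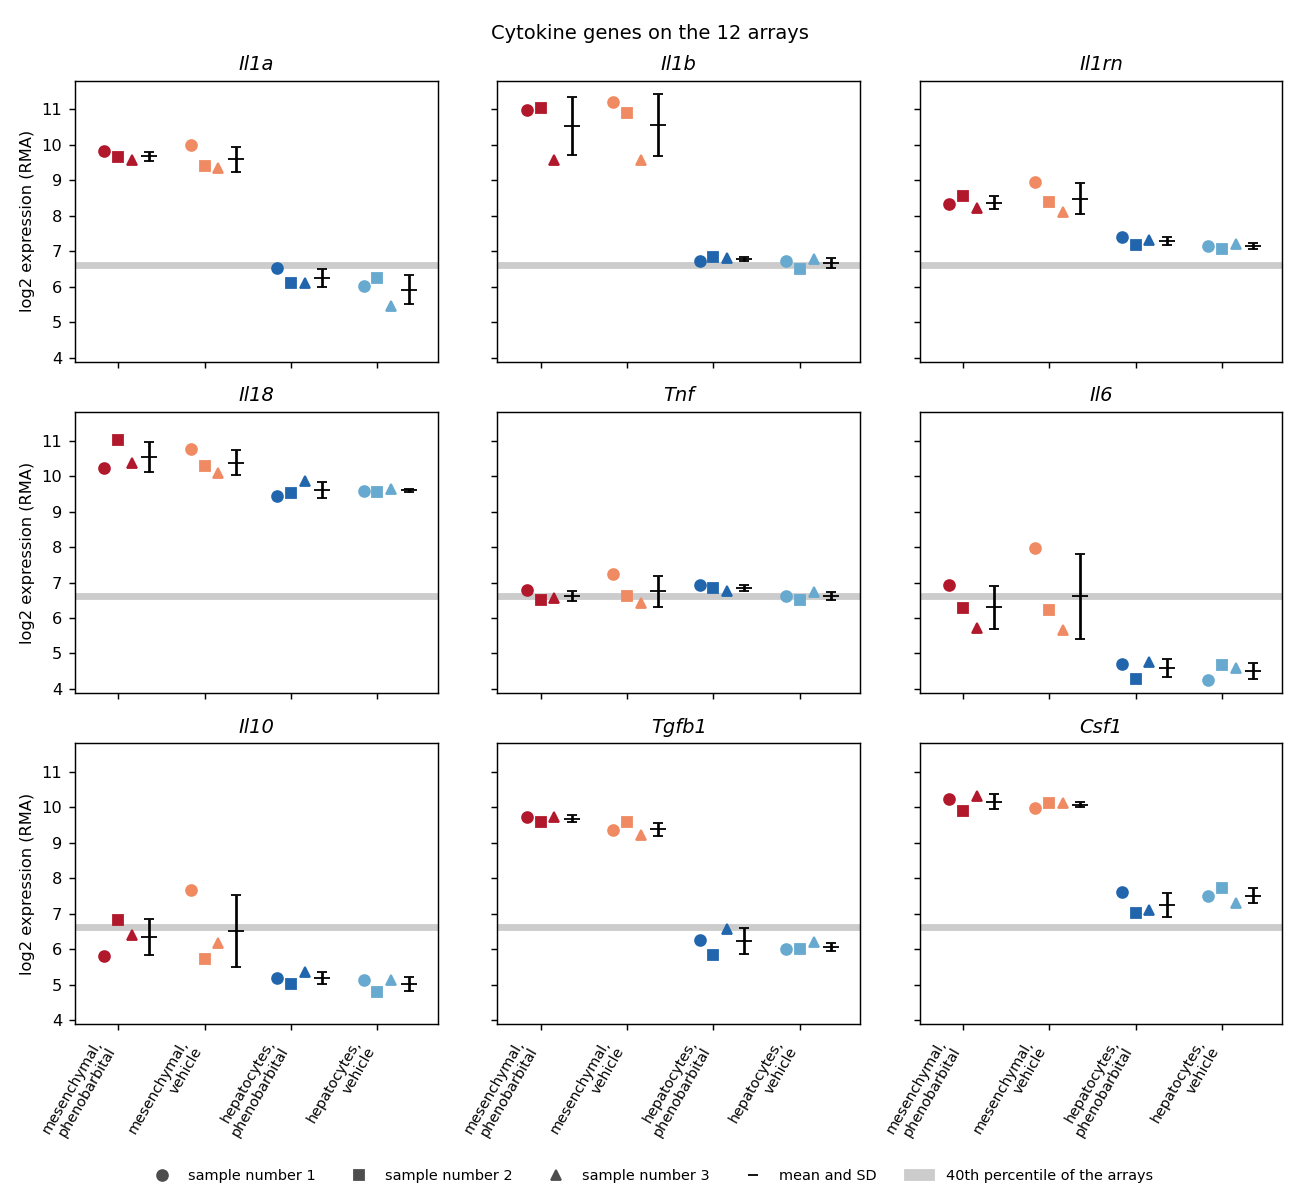
Log2 expression of the 9 measured cytokine genes on the 12 arrays, with 1 panel per gene and the 4 groups along the horizontal axis. Symbols are single samples, the black bars are the mean and SD of 3 samples, and the grey band spans the 40th percentiles of the 12 arrays. Il1a, Il1b, Tgfb1 and Csf1 stand at 9.21 or more in every mesenchymal sample and at 7.73 or less in every hepatocyte sample, whereas the Tnf symbols of all groups lie along the band.

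Il1b, the secreted interleukin-1 of activated macrophages, measured 10.98, 11.04 and 9.59 in mesenchymal cells of phenobarbital mice and 11.22, 10.90 and 9.56 in those of vehicle mice. Hepatocytes gave 6.71, 6.83 and 6.80 in phenobarbital mice and 6.72, 6.51 and 6.78 in vehicle mice. Every mesenchymal sample was far above every hepatocyte sample, and hepatocyte levels sat near the floor. Mesenchymal cells exceeded hepatocytes by 3.75 ± 0.43 (SE) in phenobarbital mice, with an adjusted p of 6.00e-06 in limma, and by 3.89 ± 0.43 in vehicle mice, with an adjusted p of 4.42e-06. Because the hepatocyte level is close to the floor, these differences are rough and may be too small.

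Il1a, the interleukin-1 that stays largely inside or on the cell until it is released, measured 9.82, 9.65 and 9.57 in mesenchymal cells of phenobarbital mice and 9.998, 9.41 and 9.35 in those of vehicle mice. In hepatocytes it measured 6.53, 6.11 and 6.10 in phenobarbital mice and 6.03, 6.26 and 5.47 in vehicle mice. All hepatocyte values lay below the floor, and the populations were fully separated. The fitted difference was 3.43 ± 0.22 (SE) in phenobarbital mice and 3.67 ± 0.22 in vehicle mice, with limma adjusted p of 3.91e-08 and 2.19e-08. Against the floor of the hepatocyte arrays in place of their values, Il1a was at least 8.54-fold higher in phenobarbital mice and at least 8.14-fold higher in vehicle mice.

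Il1rn, the antagonist that occupies the interleukin-1 receptor without signalling, was also higher in mesenchymal cells, with a smaller difference on its brightest probe set (1423017_a_at). There it measured 8.32, 8.56 and 8.22 in mesenchymal cells of phenobarbital mice and 8.95, 8.38 and 8.10 in those of vehicle mice, against 7.399, 7.17 and 7.31 in hepatocytes of phenobarbital mice and 7.15, 7.05 and 7.22 in those of vehicle mice. The populations did not overlap, and hepatocytes stood above the floor on all 6 arrays. The difference was 1.08 ± 0.18 (SE) in phenobarbital mice, or 2.11-fold, and 1.34 ± 0.18 in vehicle mice, or 2.53-fold. The limma adjusted p was 0.00017 in phenobarbital mice and 2.88e-05 in vehicle mice. The other probe sets of Il1rn differed in size from this one. The probe set 1451798_at gave 1.66 in phenobarbital mice and 2.42 in vehicle mice, both called. The dim probe set 1425663_at gave 0.20 in phenobarbital mice, not called with a limma adjusted p of 0.477, and 0.66 in vehicle mice, called with an adjusted p of 0.0272. Both of these probe sets lay below the floor on all 6 hepatocyte arrays. They could be tested only because of their mesenchymal values, which largely set the direction of their differences.

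Il18, an interleukin-1 relative that macrophages and many epithelia make as an inactive precursor, was well above the floor in both populations. It measured 10.24, 11.01 and 10.37 in mesenchymal cells of phenobarbital mice and 10.77, 10.27 and 10.09 in those of vehicle mice. In hepatocytes it measured 9.43, 9.53 and 9.85 in phenobarbital mice and 9.59, 9.56 and 9.65 in vehicle mice. All mesenchymal samples were above all hepatocyte samples, but by little. The difference was 0.94 ± 0.21 (SE) in phenobarbital mice and 0.78 ± 0.21 in vehicle mice, with limma adjusted p of 0.00141 and 0.00476.

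Tnf, the macrophage cytokine that opens many inflammatory responses, measured 6.79, 6.52 and 6.55 in mesenchymal cells of phenobarbital mice and 7.24, 6.61 and 6.41 in those of vehicle mice. Hepatocytes gave 6.93, 6.85 and 6.76 in phenobarbital mice and 6.63, 6.51 and 6.74 in vehicle mice. All 12 values lay around the floor, 1 mesenchymal sample of each treatment exceeded its own floor, as did 3 hepatocyte samples of phenobarbital mice and 2 of vehicle mice, and the populations overlapped. The difference was −0.22 ± 0.18 (SE) in phenobarbital mice (95% interval −0.62 to 0.17) and 0.13 ± 0.18 in vehicle mice (−0.27 to 0.52), with limma adjusted p of 0.263 and 0.517. Without vehicle mesenchymal sample 1 the vehicle difference turned to −0.11. With array medians subtracted, which lowers every mesenchymal value against hepatocytes by 0.23 in phenobarbital mice and by 0.22 in vehicle mice, the Tnf differences were −0.45 (adjusted p = 0.0361, a call) and −0.087. Both moved by no more than that shift of all genes. Levels this close to the floor are rough.

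Il6, the main inducer of acute phase proteins in hepatocytes, measured 6.93, 6.27 and 5.72 in mesenchymal cells of phenobarbital mice and 7.96, 6.23 and 5.66 in those of vehicle mice. In hepatocytes it measured 4.71, 4.29 and 4.75 in phenobarbital mice and 4.24, 4.66 and 4.58 in vehicle mice. Sample 1 of each treatment exceeded the floor and the other mesenchymal samples did not, yet every mesenchymal value was above every hepatocyte value. Il6 did not reach the filter for testing. In a fit with no filter, where 80.4% of all genes were called in phenobarbital mice and 78.4% in vehicle mice, the difference was 1.72 ± 0.47 (SE) in phenobarbital mice and 2.12 ± 0.47 in vehicle mice, with limma adjusted p of 0.00531 and 0.00147. Without vehicle mesenchymal sample 1, the vehicle difference was 1.45.

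Il10, the cytokine by which macrophages and T cells damp inflammation, also had its values spread around the floor. It measured 5.81, 6.83 and 6.41 in mesenchymal cells of phenobarbital mice and 7.66, 5.71 and 6.19 in those of vehicle mice, against 5.19, 5.02 and 5.35 in hepatocytes of phenobarbital mice and 5.13, 4.80 and 5.12 in those of vehicle mice. One mesenchymal sample of each treatment exceeded the floor, and no hepatocyte sample reached the lowest mesenchymal value. With no filter the difference was 1.17 ± 0.40 (SE) in phenobarbital mice and 1.502 ± 0.40 in vehicle mice, with limma adjusted p of 0.0181 and 0.00468. The call in phenobarbital mice was lost without phenobarbital mesenchymal sample 2, where the difference was 0.93 (adjusted p = 0.0749), and without phenobarbital hepatocyte sample 2, where it was 1.08 (adjusted p = 0.054). Without vehicle mesenchymal sample 1, the vehicle difference was 0.93.

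Tgfb1, the growth factor that drives matrix production by stellate cells and restrains lymphocytes, measured 9.73, 9.58 and 9.73 in mesenchymal cells of phenobarbital mice and 9.37, 9.57 and 9.21 in those of vehicle mice. Hepatocytes gave 6.26, 5.84 and 6.57 in phenobarbital mice and 6.00, 6.00 and 6.19 in vehicle mice, at or below the floor on every array. The mesenchymal samples lay close together and well apart from all hepatocyte samples. The fitted difference was 3.46 ± 0.16 (SE) in phenobarbital mice and 3.32 ± 0.16 in vehicle mice. Against the floor of the hepatocyte arrays, Tgfb1 was at least 8.57-fold higher in phenobarbital mice and at least 7.06-fold higher in vehicle mice. The limma adjusted p was 2.92e-09 in phenobarbital mice and 3.84e-09 in vehicle mice, the smallest among the cytokines in both comparisons.

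Csf1, which maintains Kupffer cells through the receptor Csf1r, measured on its brightest probe set (1460220_a_at) 10.25, 9.91 and 10.33 in mesenchymal cells of phenobarbital mice and 9.98, 10.11 and 10.12 in those of vehicle mice. In hepatocytes it measured 7.62, 7.01 and 7.10 in phenobarbital mice and 7.50, 7.73 and 7.30 in vehicle mice. The populations were fully separated, with hepatocytes above the floor in all 6 samples. The difference was 2.91 ± 0.17 (SE), or 7.54-fold, in phenobarbital mice and 2.56 ± 0.17, or 5.90-fold, in vehicle mice, with limma adjusted p of 1.74e-08 and 5.14e-08. The 4 probe sets of Csf1 disagreed on its size. The probe set 1448914_a_at gave 1.68 in phenobarbital mice and 1.67 in vehicle mice, and 1425155_x_at gave 0.97 and 0.53 in the same order, all called, with all 6 hepatocyte values of both below the floor. Both could be tested only because of their mesenchymal values, which fixed the direction of their differences. The probe set 1425154_a_at measured 7.199 to 7.52 in mesenchymal samples and 7.29 to 7.54 in hepatocyte samples, and its differences of −0.07 in phenobarbital mice and −0.08 in vehicle mice were not called.

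**Figure D2:**
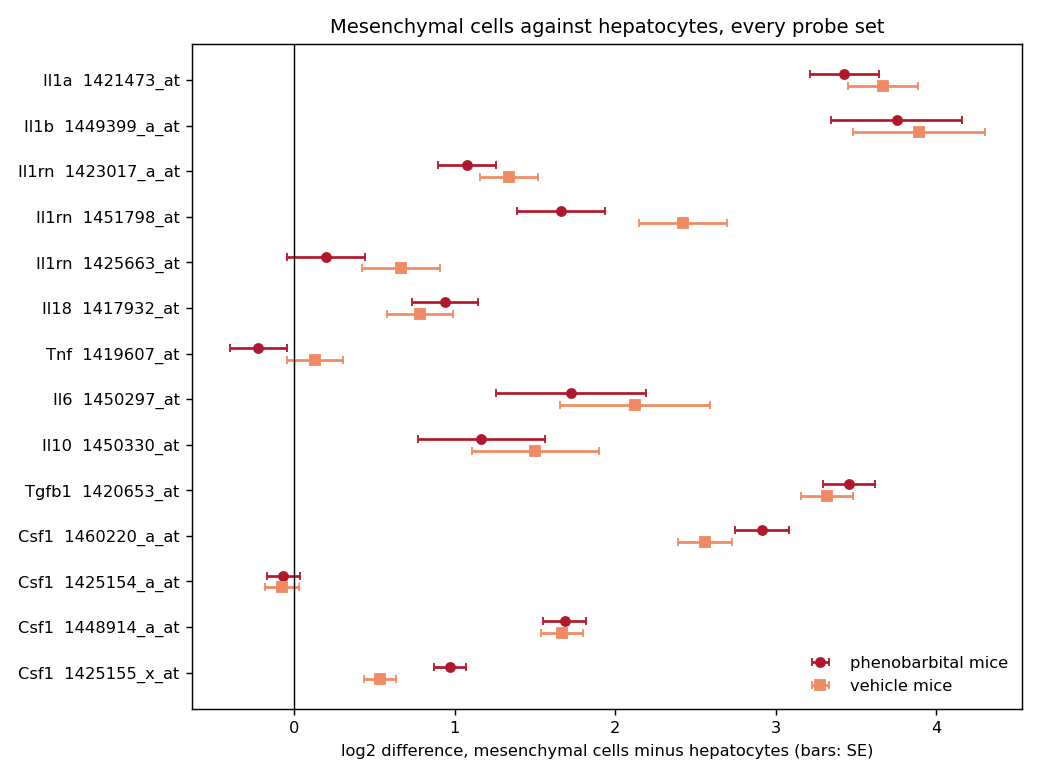
Log2 difference, mesenchymal cells minus hepatocytes, for each of the 14 probe sets of the cytokine genes, with phenobarbital mice as circles above and vehicle mice as squares below. Points are differences of means of 3 samples and bars are SE from limma with all probe sets and no filter. Il1a, Il1b and Tgfb1 lie beyond 3, Tnf gave −0.22 in phenobarbital mice and 0.13 in vehicle mice, and the probe sets of Il1rn and of Csf1 spread apart.

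Marker lists give the make-up of the samples beside these differences. Of all 9031 genes tested, 42.2% were called higher and 40.9% lower in mesenchymal cells of phenobarbital mice. In vehicle mice these shares were 42% and 40.7%, so the numbers called say little by themselves. All 13 measured Kupffer cell markers were higher in mesenchymal cells in both treatments, and the mean level of the list was 13.6 to 14.0 in mesenchymal cells of phenobarbital mice, 13.8 to 13.9 in those of vehicle mice, 6.31 to 6.92 in hepatocytes of phenobarbital mice and 6.63 to 6.64 in those of vehicle mice. All 15 sinusoidal endothelial markers were higher as well. Their list averaged 12.63 to 12.79 in mesenchymal cells of phenobarbital mice and 12.27 to 12.81 in those of vehicle mice. In hepatocytes it averaged 6.16 to 6.70 and 6.34 to 6.48, in the same order of treatments. Of 12 markers of stellate cells and fibroblasts, 9 were tested and 8 were higher in both treatments. Among them Dcn, a matrix proteoglycan gene of these cells, was at 11.31 or more in every mesenchymal sample, while Lrat, a gene of retinoid storage in stellate cells, exceeded the floor in 3 of the 6. Of 9 measured T and NK cell markers, 8 were tested and 6 were higher in both treatments. All 6 measured dendritic cell markers were higher in both treatments. Of 7 measured neutrophil and inflammatory monocyte markers, 3 were tested, and these were higher in both. On hepatocyte arrays alone, 6 Kupffer cell, 8 endothelial, 3 stellate cell, 2 T and NK cell and 1 dendritic cell markers passed the filter. Of the neutrophil and monocyte markers, 0 did. The other tested markers needed mesenchymal arrays to pass, which largely set the direction of their difference. By the levels of the lists, the population labelled mesenchymal held strong Kupffer and endothelial cell RNA. Beside it stood marker RNA of stellate cells, lymphocytes, dendritic cells and neutrophils or monocytes. Which of these cells carried a given cytokine cannot be told apart. In such mixed samples fewer cells of a type and less RNA per cell cannot be told apart either. Hepatocyte markers were lower in mesenchymal cells for 14 of 14 measured genes, but Alb, the albumin gene, still read 13.40 to 14.69 there, against 15.0004 to 15.07 in hepatocytes. Cyp2b10, the classical phenobarbital target, measured 12.87 to 14.15 in hepatocytes of phenobarbital mice, against 7.72 to 8.01 in those of vehicle mice, so the hepatocyte labels and the treatment matched.

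The second question was whether 14 days of phenobarbital changed these cytokines in either population. No cytokine was called in mesenchymal cells or in hepatocytes. In mesenchymal cells 6 cytokines were tested and 0 were called, beside 0% of the 8003 genes tested (232 genes had an unadjusted p under 0.05 in limma, among them 1 cytokine, Tgfb1). In hepatocytes 5 were tested and 0 were called, beside 0.0493% of the 8117 genes tested, which is 4 genes (680 genes had an unadjusted p under 0.05, none of them a cytokine). Without a filter none of the 9 measured cytokines was called in either population. Their median difference was −0.02 in mesenchymal cells and 0.15 in hepatocytes, beside medians of 0.00 and 0.01 over all 12393 genes.

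In mesenchymal cells Tgfb1 was the one cytokine whose groups did not overlap. Its levels of 9.73, 9.58 and 9.73 in phenobarbital mice stood above 9.37, 9.57 and 9.21 in vehicle mice, with a gap between the groups of less than the spread within either. The difference was 0.30 ± 0.11 (SE; 95% interval 0.04 to 0.56), or 1.23-fold, with an unadjusted p of 0.0311 and an adjusted p of 0.998 in limma. Non-overlap was found for 8.37% of all genes measured in this comparison and 7.7% of those tested, so 1 of 9 cytokines is near that share. For the other members the intervals show what 3 samples a group could resolve. Csf1 differed by 0.09 (−0.20 to 0.38), Il1a by 0.09 (−0.35 to 0.52), Il1rn by −0.11 (−0.64 to 0.42) and Il18 by 0.16 (−0.45 to 0.77). The interval of Il1b, −1.34 to 1.29 around −0.02, leaves room for a change of more than 2-fold either way. Il6 (−0.31), Il10 (−0.17) and Tnf (−0.13) stood near or below the floor, and each of these differences turned positive without vehicle mesenchymal sample 1, to 0.36 for Il6, 0.40 for Il10 and 0.11 for Tnf. The same held for Il1rn, at 0.13, and Il1b, at 0.31, without that sample.

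In hepatocytes Tnf was the one cytokine whose groups did not overlap. It measured 6.93, 6.85 and 6.76 in phenobarbital mice, against 6.63, 6.51 and 6.74 in vehicle mice, all close to the floor. The difference was 0.22 ± 0.11 (SE; 95% interval −0.05 to 0.49) with a limma adjusted p of 0.635, and 14.3% of all genes measured and 15.1% of those tested had groups that did not overlap in this comparison. Of the 9 measured cytokines, 8 had a difference above 0 in hepatocytes and none was called. Il18, which was well above the floor, differed by 0.00 (−0.27 to 0.27), Il1rn by 0.15 (−0.09 to 0.40), Il1b by 0.11 (−0.16 to 0.39) and Csf1 by −0.26 (−0.69 to 0.17). Single probe sets moved more. The dim Il1rn probe set 1451798_at measured 6.07, 6.27 and 5.63 in hepatocytes of phenobarbital mice, against 5.39, 5.55 and 5.31 in those of vehicle mice, and its difference of 0.57 had an unadjusted p of 0.0105 and an adjusted p of 0.577 in limma over all probe sets. The dim Csf1 probe set 1425155_x_at measured 5.95, 6.15 and 6.15 in hepatocytes of phenobarbital mice, against 6.37, 6.51 and 6.44 in those of vehicle mice. Its difference of −0.36 had an unadjusted p of 0.0151 and an adjusted p of 0.583. Both probe sets lay below the floor on all 6 hepatocyte arrays, and the brighter probe sets of the same genes had overlapping groups.

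**Figure D3:**
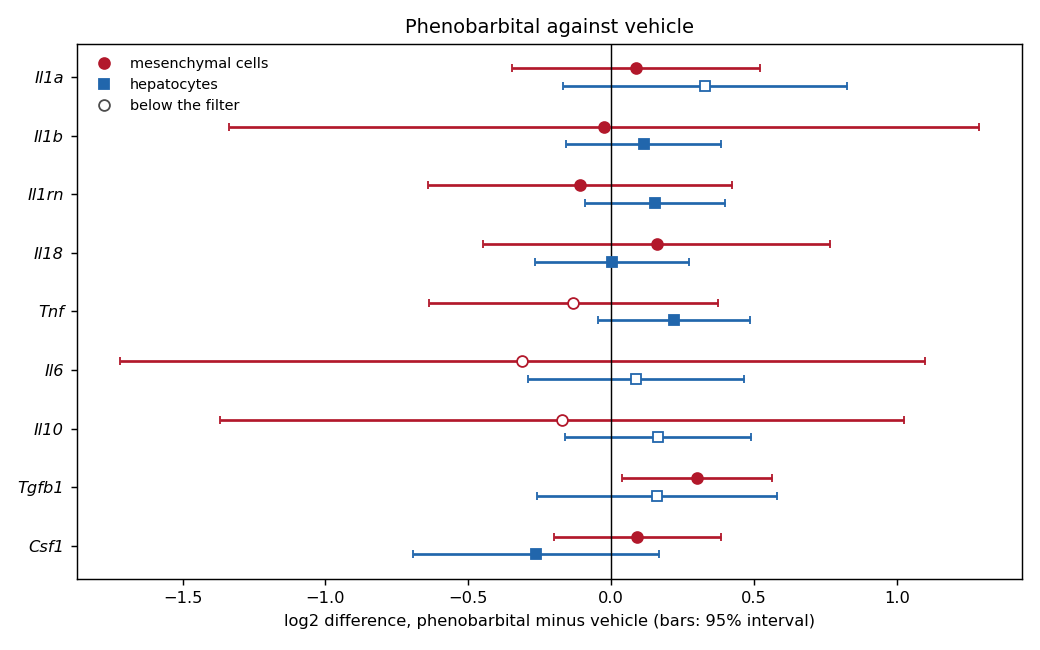
Log2 difference, phenobarbital minus vehicle, of the 9 cytokine genes in mesenchymal cells (circles, above) and hepatocytes (squares, below), with 95% intervals from limma on 6 arrays each. Open symbols are genes below the filter, taken from the fit with no filter. Every interval except that of Tgfb1 in mesenchymal cells includes 0, and those of Il1b, Il6 and Il10 in mesenchymal cells are the widest.

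The third question was whether the phenobarbital effect differed between the populations. None of the 7 cytokines tested was called for the difference of the effects, mesenchymal cells minus hepatocytes, beside 0% of the 9031 genes tested (492 genes had an unadjusted p under 0.05 in limma, none of them a cytokine). The differences of the effects ran from −0.35 ± 0.25 (SE) for Tnf to 0.35 ± 0.24 for Csf1, with adjusted p of 0.930 to 0.982. For Csf1 the 95% interval was −0.17 to 0.88, and for Il1b, with −1.46 to 1.18, it was wide enough to hold sizeable differences either way.

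Among the mesenchymal samples themselves, several cytokines varied more than genes in general. The SD over the 3 samples exceeded the 95th percentile of the SDs of all genes for 4 of 9 cytokines in phenobarbital mice (Il1b, Il6, Il10 and Il18) and for 5 of 9 in vehicle mice (Tnf, Il1b, Il1rn, Il6 and Il10), where 5% of genes lie beyond it by construction. Of these genes, Il6, Il10 and Tnf exceeded the floor in only 1 mesenchymal sample of each treatment, so their spread is rough. In hepatocytes 1 of 9 cytokines exceeded that percentile in each treatment, Tgfb1 in phenobarbital mice and Il1a in vehicle mice, both below the floor. Tgfb1 and Csf1 varied little in mesenchymal cells: their widest spans over the 6 samples were 0.52 and 0.42. The span was 2.30 for Il6, or 4.93-fold, 1.95 for Il10, or 3.86-fold, and 1.66 for Il1b, or 3.16-fold.

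Vehicle mesenchymal sample 1 had the highest value of all 6 mesenchymal samples for 6 of the 9 cytokines (Tnf, Il1a, Il1b, Il1rn, Il6 and Il10), and vehicle sample 3 had the lowest for 7 of 9. Sample 1 also stood apart in other genes. The mean level of 16 immediate early and dissociation stress genes was 10.77 there, against 9.42 to 9.76 in the other mesenchymal samples, and Fos, a subunit of AP-1, measured 13.76 there, against 11.65 to 12.55. Its T and NK cell markers averaged 8.83, against 7.92 to 8.33 in the others, and its hepatocyte markers averaged 9.11, the lowest of the 6. Dbp, an output gene of the circadian clock, measured 6.52 in this sample and 6.21 in vehicle hepatocyte sample 1, against 11.60 to 12.15 in the other 10 samples. The part of these features in the cytokine levels was not tested. Without both vehicle samples numbered 1, the differences between the populations of vehicle mice were 3.52 for Il1a, 3.59 for Il1b, 3.29 for Tgfb1, 2.60 for Csf1, 1.10 for Il1rn and 0.58 for Il18. These 6 were called without those samples too, Il18 with the highest limma adjusted p, 0.0412.

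Il1b was low in sample 3 of either treatment, at 9.59 in phenobarbital mice and 9.56 in vehicle mice. It lay between 10.90 and 11.22 in the other 4. Il6, below the floor at 5.72 and 5.66, and Il1rn, at 8.22 and 8.10, were also lowest in those samples. The Kupffer cell markers did not show the gap of Il1b. Their mean was 13.70 and 13.76 in these low samples and 13.64 to 14.05 in the others. Il18 was highest in phenobarbital mesenchymal sample 2, at 11.01. The neutrophil and inflammatory monocyte markers, 7 of 10 measured, averaged 8.50 there and 7.46 in vehicle sample 1, against 6.32 to 6.78 in the other 4. S100a8, a calcium-binding protein gene of neutrophils, measured 11.07 in the first of these samples and 9.53 in the second, against 7.01 to 8.08. Those are the samples in which Il10 was highest, at 6.83 and 7.66, and in which Il1rn was highest, at 8.56 and 8.95. Il1b, at 11.04 and 11.22, and Il18, at 11.01 and 10.77, were highest in them as well. Tnf, Il1a and Il6 were also highest in vehicle sample 1, but their next highest value was in phenobarbital sample 1. Tgfb1 and Csf1 were highest in phenobarbital sample 3. The part of these markers in the result was not tested.

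**Figure D4:**
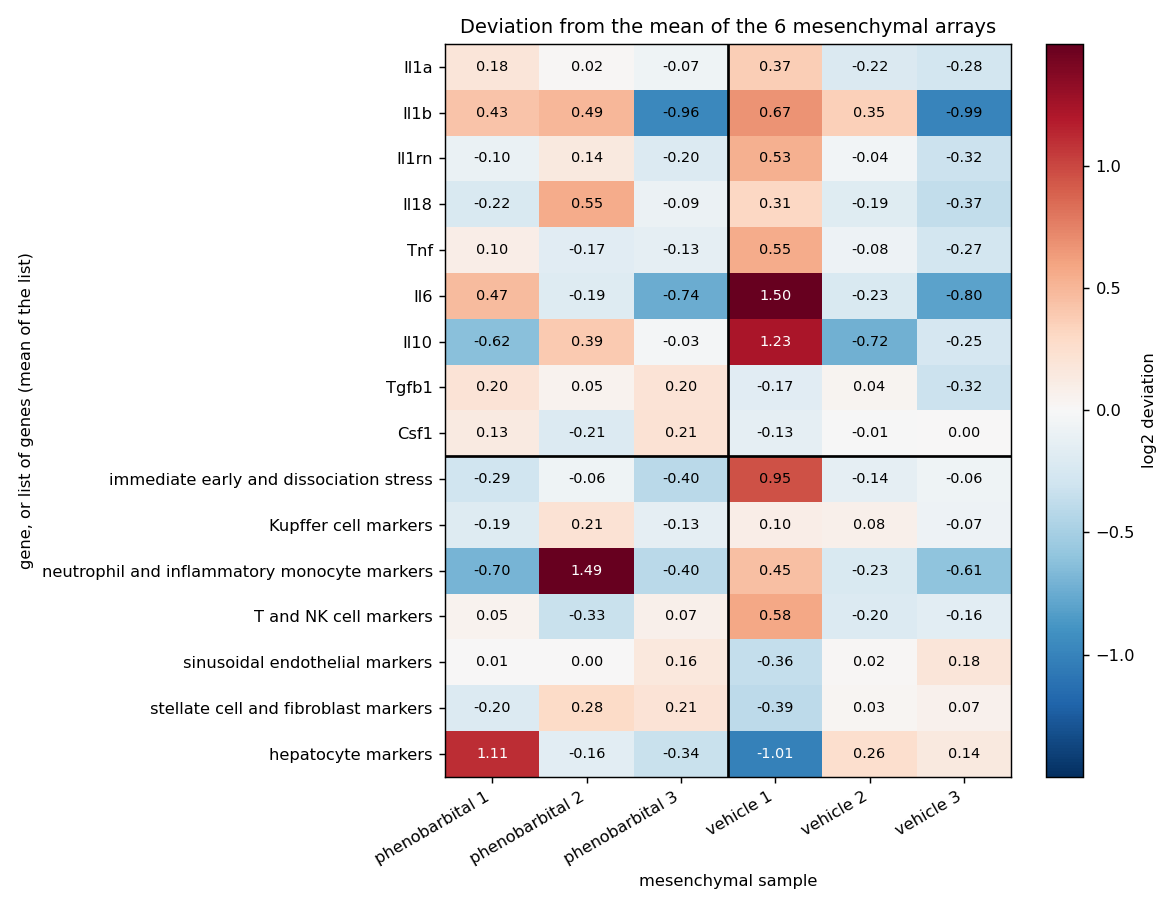
Deviation of each cytokine (rows above the line) and of the mean of each marker list (rows below it) from its mean over the 6 mesenchymal arrays, on the log2 scale, with phenobarbital samples left and vehicle samples right. Vehicle sample 1 is high for Il6 (1.498), Il10 (1.23) and the immediate early genes (0.95), both samples numbered 3 are low for Il1b (−0.96 and −0.99), and phenobarbital sample 2 is high for Il18 (0.55) and the neutrophil list (1.49).

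Around the cytokines, the genes that receive, process and relay them were compared between the populations from lists of 120 genes. Of 16 receptor genes, 13 were tested. In phenobarbital mice 10 were higher in mesenchymal cells and 1 was lower, and in vehicle mice 11 were higher and 2 were lower. Over all 9031 genes tested, 42.2% were higher and 40.9% lower in phenobarbital mice, and 42% and 40.7% in vehicle mice. With 83.1% and 82.7% of all genes called, the number called says little about this list or the lists below. The median differences of the receptor genes were 2.30 in phenobarbital mice and 1.99 in vehicle mice, beside 0.03 and 0.02 over all genes. Csf1r, the receptor of Csf1, differed by 7.13 ± 0.12 (SE) in phenobarbital mice and by 7.07 ± 0.12 in vehicle mice. Osmr, which pairs with gp130 to bind oncostatin M, differed by 5.82 ± 0.37 in phenobarbital mice and by 6.22 ± 0.37 in vehicle mice, and Il6st, the gp130 chain itself, by 4.30 ± 0.12 and 4.13 ± 0.12 in the same order. Both chains of the interleukin-10 receptor were higher, Il10rb by 4.70 in phenobarbital mice and 4.79 in vehicle mice, and Il10ra by 3.22 and 3.49. All limma adjusted p of these 5 genes lay at or below 4.07e-08. Osmr and Il10ra exceeded the floor on no hepatocyte array, so they could be tested only because of their mesenchymal values. That fixed the direction of their differences, and the size of these differences is rough. Of the 13 tested receptor genes, 9 passed the filter in both populations, 3 through mesenchymal arrays alone and 1 through hepatocyte arrays alone.

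Among the receptor genes, Il1rap passed the filter through hepatocyte arrays alone, which largely set the direction of its difference. Il1rap, the accessory protein without which the interleukin-1 receptor does not signal, measured 7.90, 6.16 and 6.00 in mesenchymal cells of phenobarbital mice and 5.92, 6.84 and 6.47 in those of vehicle mice. Hepatocytes gave 12.42, 12.35 and 12.44 in phenobarbital mice and 12.18, 12.30 and 12.32 in vehicle mice. The difference was −5.72 ± 0.40 (SE) in phenobarbital mice and −5.86 ± 0.40 in vehicle mice, with limma adjusted p of 9.02e-08 and 7.20e-08. Mesenchymal levels sat near the floor in most samples, and the highest of them came from phenobarbital sample 1, whose hepatocyte markers were also the highest of the 6 mesenchymal samples, at a mean of 11.22. The other receptor gene lower in vehicle mice was Il1r1, the signalling interleukin-1 receptor itself (−0.64 ± 0.12, limma adjusted p = 0.000501), picked out here after its values were seen. In phenobarbital mice its difference was −0.04 (adjusted p = 0.783).

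Of 12 genes that process, release or bind the cytokines, 9 were tested. In each treatment 6 of them were higher in mesenchymal cells and 1 was lower, beside 83.1% and 82.7% of all genes called. The median differences of the list were 2.95 in phenobarbital mice and 2.84 in vehicle mice. Casp1, the protease that matures Il1b and Il18, was higher by 5.22 ± 0.14 (SE) in phenobarbital mice and by 5.18 ± 0.14 in vehicle mice. Pycard, the inflammasome adaptor, was higher by 4.87 and 4.72, and Nlrp3, an inflammasome sensor, by 0.93 and 1.75, in the same order of treatments. Il18bp, the secreted decoy that captures interleukin-18, was higher by 5.03 and 5.26, and Nrros, which tethers latent transforming growth factor beta on macrophages, by 5.37 and 5.63. Adam17, the protease that sheds tumour necrosis factor from the membrane, was higher by 2.95 and 2.84. The one lower gene was Furin, a convertase that cleaves the Tgfb1 precursor, at −1.20 ± 0.09 in phenobarbital mice and −1.34 ± 0.09 in vehicle mice. Casp1, Pycard and Nrros exceeded the floor on no hepatocyte array, and could be tested only because of their mesenchymal values, which fixed the direction of their differences.

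Of 25 signal transduction and feedback genes, 20 were tested. In phenobarbital mice 16 were higher in mesenchymal cells and in vehicle mice 17, none was lower in either, and the medians were 0.91 and 0.77. The shares called over all genes tested were 83.1% and 82.7%, in the same order of treatments. Relb, an NF-kappaB subunit, was higher by 3.12 ± 0.17 (SE) in phenobarbital mice and by 2.70 ± 0.17 in vehicle mice, Jak1, a kinase of cytokine receptors, by 3.00 and 2.78, and Nfkbie, an inhibitor of NF-kappaB, by 2.77 and 2.50. Relb and Nfkbie exceeded the floor on no hepatocyte array, so their mesenchymal values alone let them be tested and fixed the direction of their differences. Among 48 other cytokine genes 42 were measured but only 12 were tested, of which 7 were higher and 5 lower in each treatment. Of these 12, 7 passed the filter through mesenchymal arrays alone and 4 through hepatocyte arrays alone, so that the filter largely set their direction and nothing is read from the count. Mif, a macrophage cytokine that many cells make, passed in both populations. Il16, a chemoattractant of T cells, was higher by 3.61 ± 0.21 in phenobarbital mice and by 3.59 ± 0.21 in vehicle mice, Kitl, the ligand of the Kit receptor, by 3.42 and 3.71, and Il15, which sustains NK cells, by 3.23 and 2.96. Ltb, the neighbour of Tnf, was higher by 2.40 and 1.89. The 5 lower ones, listed after their values were seen, were Ctf1, Mif, Il9, Il13 and Tnfsf8.

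The hepatocyte genes that these cytokines induce, chiefly acute phase proteins, ran the opposite way. Of 19 tested, 15 were lower and 1 higher in mesenchymal cells in phenobarbital mice, and 16 lower and 1 higher in vehicle mice. The medians were −3.59 and −4.32, and 83.1% and 82.7% of all genes tested were called, in the same order of treatments. Crp differed by −5.20 ± 0.32 (SE) in phenobarbital mice and by −5.19 ± 0.32 in vehicle mice, and Hamp, the gene of the iron hormone hepcidin, by −4.45 ± 0.47 and −5.53 ± 0.47. The gene higher in mesenchymal cells was Cebpd, a transcription factor induced by interleukin-6, at 2.14 ± 0.31 and 2.47 ± 0.31, named after its values were seen. The hepatocyte markers were lower for 14 of 14 genes in both treatments, with medians of −4.20 and −4.65, and their part in the result was not tested.

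**Figure D5:**
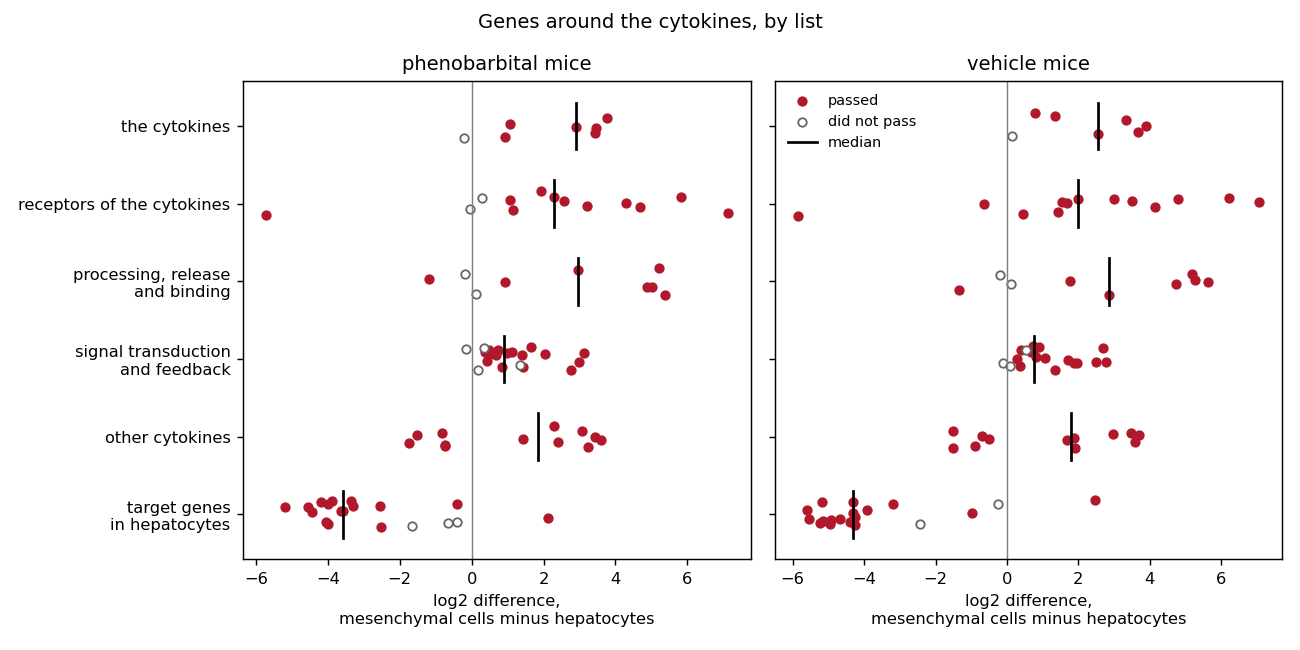
Log2 difference, mesenchymal cells minus hepatocytes, of each tested gene in the lists around the cytokines, in phenobarbital mice (left) and vehicle mice (right). Filled circles were called, open circles were not, and the black line is the median of the list. The receptor genes run from Il1rap near −6 to Csf1r near 7, and nearly all target genes lie below 0.

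Under phenobarbital no gene of these lists was called in either population. In mesenchymal cells the difference with the smallest unadjusted p among the named genes was that of Relb, which measured 8.92, 8.62 and 8.56 in phenobarbital mice, against 8.21, 8.32 and 8.05 in vehicle mice. The groups did not overlap, as was so for 7.7% of the 8003 genes tested. The difference of 0.51 ± 0.12 (SE) had an unadjusted p of 0.00509 and an adjusted p of 0.998 in limma. Tnfsf10, the death ligand TRAIL, differed by 0.47 ± 0.19 (adjusted p = 0.998). In hepatocytes Il1r1 measured 8.74, 8.49 and 9.02 in phenobarbital mice, against 9.49, 9.37 and 9.23 in vehicle mice. All phenobarbital samples were lower, where 15.1% of the 8117 genes tested in hepatocytes had groups that did not overlap. The difference of −0.61 ± 0.14 had an unadjusted p of 0.00289 and an adjusted p of 0.391 in limma. Smad7, the feedback inhibitor of transforming growth factor beta signalling, measured 8.23, 7.91 and 7.96 in hepatocytes of phenobarbital mice, against 7.16, 7.84 and 7.42 in those of vehicle mice, a difference of 0.56 ± 0.18 (adjusted p = 0.499).

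Nlrp3 had differences of opposite sign, −0.32 ± 0.18 (SE) in mesenchymal cells and 0.50 ± 0.15 in hepatocytes. The difference of the effects was −0.82 ± 0.24, with an unadjusted p of 0.00649 and an adjusted p of 0.870 in limma, so it was not called. Among the target genes in hepatocytes, 16 of 19 had a difference below 0 under phenobarbital, 9 of them with an unadjusted p under 0.05 and none called (smallest limma adjusted p = 0.270), at a median of −0.30. Of all 8117 genes tested in hepatocytes, 680 had an unadjusted limma p under 0.05, and the median difference was −0.004. The immediate early and dissociation stress genes ran the same way in the same samples: 10 of 10 tested had a difference below 0, at a median of −0.57, 6 of them with an unadjusted p under 0.05 and none called (smallest limma adjusted p = 0.433). In mesenchymal cells 13 of 14 of those stress genes had a difference below 0, at a median of −0.38, while 12 of 17 tested target genes had one above 0. The median over all 8003 genes tested there was 0.005. Without both vehicle samples numbered 1, 17 of 19 target genes and 9 of 10 stress genes were below 0 in hepatocytes, at medians of −0.25 and −0.40, and 10 of 14 stress genes in mesenchymal cells, at −0.08. The part of the stress genes in the result was not tested. Saa2, a serum amyloid gene, measured 8.93, 9.34 and 12.31 in phenobarbital mice, against 13.02, 13.78 and 12.83 in vehicle mice, so that phenobarbital sample 3 stood near the vehicle samples and the others far below them. Its difference was −3.02 ± 0.80 (adjusted p = 0.433). Il6, an inducer of these genes, stood below the floor in all 6 of these hepatocyte samples. In mesenchymal cells its phenobarbital difference was −0.31, and 0.36 without vehicle sample 1. The part of Il6 in the result was not tested.

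The genes whose 12 values most resembled those of a cytokine were sought among all genes, by the root mean square difference after subtracting each gene's own mean. For Il1a they were Slamf8 (0.21), Metrnl (0.22) and Dock2 (0.24), for a gene whose own values span 4.53. For Il1b they were Ncapg2 (0.35), Spic (0.36) and Tlr1 (0.38), for Il10 they were Clec4d (0.33), C5ar1 (0.34) and Hcar2 (0.34), and for Il6 they were Rgs18 (0.40), Dusp6 (0.40) and Trgv4 (0.41). The values for Tgfb1 were 0.16 for Gnb4, 0.21 for Ptpn18 and 0.21 for H2-T24, and those for Csf1 were 0.15 for Ralb, 0.17 for Cntln and 0.19 for Wasf2. Il18 was nearest to Ppbp (0.12), Rcc1 (0.15) and Pik3ap1 (0.16), Il1rn to Plod3 (0.11), Tgfbr1 (0.11) and Igsf8 (0.11), and Tnf, whose values span 0.82, to Guca1b (0.12), Prr15 (0.14) and Fkbp3 (0.14). These distances are descriptions over 12 arrays that share 2 populations.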

How the data were processed

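Total RNA of isolated cells was amplified, labelled with biotin by an Affymetrix 3′ kit and put on arrays, per the labels' protocols. The authors deposited a log2 value for each of 22626 probe sets and 12 arrays, made with RMA per the submitters' processing notes. The sources used here give no software, version, genome build or scan date, and batches were not tested. RMA forces the arrays to nearly 1 distribution, so each difference is relative to most other genes. Array medians ran from 7.19 to 7.44, and 3 arrays a group limit the precision.

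Genes were named from the platform annotation: 20380 probe sets had 1 symbol, 691 several and 1555 none, and 20351 matched the RefSeq gene table by Entrez number with 0 symbols changed. Where a gene had several probe sets, the brightest on average was used. Tests used limma 3.58.1 in R 4.3.3 (lmFit and eBayes with an intensity trend), two-sided, adjusted by Benjamini-Hochberg over all genes tested, after the filter given above. Phenobarbital was compared with vehicle on the 6 arrays of a population, and the populations, and the difference of the effects, on all 12. Genes below the filter were read from a fit with no filter, an alternative added after seeing the data. Where a member exceeded the floor on no hepatocyte array, its fold was taken against the mean floor of those arrays as a lower bound. The script was tested on simulated data.

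Named genes were all members and, of each list, up to 6 called genes with the widest difference or, where none was called, up to 3. The members and lists were chosen with earlier results of these data known. Deviations of mesenchymal and hepatocyte samples of one number correlated at 0.20, 0.17 and 0.15 in vehicle mice, each above 0.1, and at 0.06, −0.03 and 0.01 in phenobarbital mice. Mesenchymal samples numbered 3, which come from mice of different treatments, correlated at 0.14. Correlations of this size do not settle whether samples of one number came from the same mice. Alternatives changed the scaling, the filter, the probe set rule, the arrays in the fit, the eBayes setting, the replicate number as a block, and leaving out samples.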

Additional observations from a re-analysis of the deposited data

How the results depend on the processing

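The number of cytokines called was 6 in both comparisons of the populations and 0 in the other comparisons under every alternative run, except 8 with no filter (Il6 and Il10 added, both comparisons) and 7 with array medians subtracted (Tnf added, phenobarbital mice, −0.45). Quantile normalization within each population was run for the phenobarbital comparisons alone. The stricter filter left 1 cytokine to test in hepatocytes. With the replicate number as a block the counts were 6 and 6 between the populations and 0 elsewhere, so it changed no call. Over all genes, phenobarbital called 4 in hepatocytes as reported and 1 with all 12 arrays in the fit, 3 with array medians subtracted, 6 with every probe set on its own and 1 to 5 leaving out 1 sample.

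Signs turned for differences that were not called. With array medians subtracted, Tnf between the populations of vehicle mice was −0.087. Without both vehicle samples numbered 1, chosen after seeing the data, the phenobarbital difference in mesenchymal cells was 0.11 for Tnf, 0.31 for Il1b, 0.13 for Il1rn, 0.36 for Il6 and 0.40 for Il10. In hepatocytes it was −0.039 for Il6 and −0.00077 for Il18. The difference of the effects was then 0.17 for Il1b, 0.40 for Il6 and 0.18 for Il10, and Tnf between the populations was −0.11.

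Leaving out 1 sample at a time, the phenobarbital difference in mesenchymal cells ranged from −0.52 to 0.45 for Il1b, −0.79 to 0.36 for Il6, −0.58 to 0.40 for Il10, −0.30 to 0.11 for Tnf, −0.30 to 0.13 for Il1rn, −0.029 to 0.29 for Il1a and −0.076 to 0.36 for Il18. In hepatocytes it ranged from −0.12 to 0.088 for Il18, −0.039 to 0.23 for Il6 and −0.010 to 0.35 for Tgfb1. The difference of the effects ranged from −0.64 to 0.34 for Il1b, −0.88 to 0.27 for Il6, −0.74 to 0.23 for Il10, −0.052 to 0.31 for Tgfb1 and −0.079 to 0.35 for Il18. Tnf between the populations of vehicle mice ranged from −0.11 to 0.30, and Il10 between those of phenobarbital mice from 0.93 to 1.44. The cause of these turns was not tested. Signal over background limits Il6 and Il10, which exceeded the floor in 2 of 12 samples each, and Tnf, which exceeded it in 7 of 12.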
